A study of Mus musculus with 16 samples.

Results

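The RNAs described here were the transfer RNAs (tRNAs) of methionine, isoleucine, threonine and asparagine, as counted in small RNA libraries of mouse prefrontal cortex. Every row of the non-coding RNA table whose name held initiator methionine (iMet), methionine (Met), isoleucine (Ile), threonine (Thr) or asparagine (Asn) was taken, which gave 67 of the 18488 listed rows. Rows with the same value in every library were counted once, which left 59 distinct rows in 9 anticodon groups, with initiator Met kept apart from elongator Met. The table held 448 listed and 388 distinct tRNA rows in all.

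The study compared 8 PS19 mice with 8 wild-type (WT) littermates, adult animals of both sexes at a single age. PS19 mice were heterozygous (PS19+/-) for a mutant human tau transgene driven by the mouse prion protein promoter, and WT mice lacked it. The background was C57BL/6 and C3H. Each library was made from one piece of frozen prefrontal cortex. The transgene's mRNA was not measured in these small RNA libraries, so the genotype of a library rested on its label.

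A tRNA carries an amino acid to the ribosome and pairs with a codon through its anticodon. The tRNAs of these 4 amino acids read codons that start with A. Initiator Met tRNA pairs with the start codon and begins each protein, whereas elongator Met tRNA reads the same codon inside the protein. Mammalian genomes carry many copies of most tRNA genes, and copies that share an anticodon but differ elsewhere in the body of the tRNA are called isodecoders; the number that follows the anticodon in a row name marks the isodecoder and the last number marks the copy. Small RNA libraries capture tRNA fragments as well as any whole tRNA that was ligated and copied, and the table does not part these.

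The deposited values were whole reads that the authors scaled with one size factor per library, here called normalized counts. Reads were recovered from these values, or rounded from them in WT 4 and WT 6. Summed over all listed rows they came to between 13187096 and 23058568 in a library. In distinct rows only, the Met, Ile, Thr and Asn tRNAs together held from 9139 to 16337 reads. Copies of a tRNA often carried near-identical counts, so sums over rows are likely to count some reads more than once. The library codes began with the letter G for all PS19 libraries and for WT 2 and WT 4, with F for WT 1, 5, 6 and 7, and with A for WT 3 and 8; the meaning of the letter is not given in the sources used here. Neuronal microRNAs such as miR-128-3p and miR-9-5p were abundant in every library, while the red blood cell microRNAs miR-451a and miR-144-3p stayed at or below a normalized count of 40.1. The 3 microRNAs listed for olfactory and epithelial cells summed to 221 to 964 in PS19 and 146 to 8053 in WT, and the 3 for muscle to 2253 to 14631 in PS19 and 2867 to 10688 in WT, with 0 of 6 at an unadjusted limma p of 0.05. Of the 3 microglia and leukocyte microRNAs, miR-155-5p passed that threshold (82.5 ± 51.6 in PS19 and 44.3 ± 15.8 in WT, SD, n = 8 each; limma adjusted p = 0.9998), while miR-142a-3p (3.75 ± 3.63 and 1.02 ± 1.41) and miR-223-3p (2.62 ± 1.35 and 4.71 ± 2.82) were too low to be tested. The part of these cell types in the tRNA values was not tested. In bulk tissue, fewer cells of a type and less RNA per cell cannot be told apart.

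The Met, Ile, Thr and Asn tRNAs were a small part of the tRNA signal. Together they held 0.219% ± 0.0647 of it in PS19 and 0.220% ± 0.0812 in WT (SD, n = 8 each), from 0.119% in WT 2 to 0.343% in PS19 1. Most of the signal came from Gly-GCC, with 50.2% on average over the 16 libraries, and Glu-CTC, with 39.1%. Among 53 tRNA anticodons ordered by mean sum, iMet-CAT stood at rank 13 and Asn-GTT at rank 22. Ile-AAT stood at rank 27 and Met-CAT at rank 33, followed by Thr-TGT at 38 and Ile-GAT at 40. Ile-TAT, Thr-AGT and Thr-CGT took ranks 47 to 49, above 4 anticodons only.

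**Figure D1:**
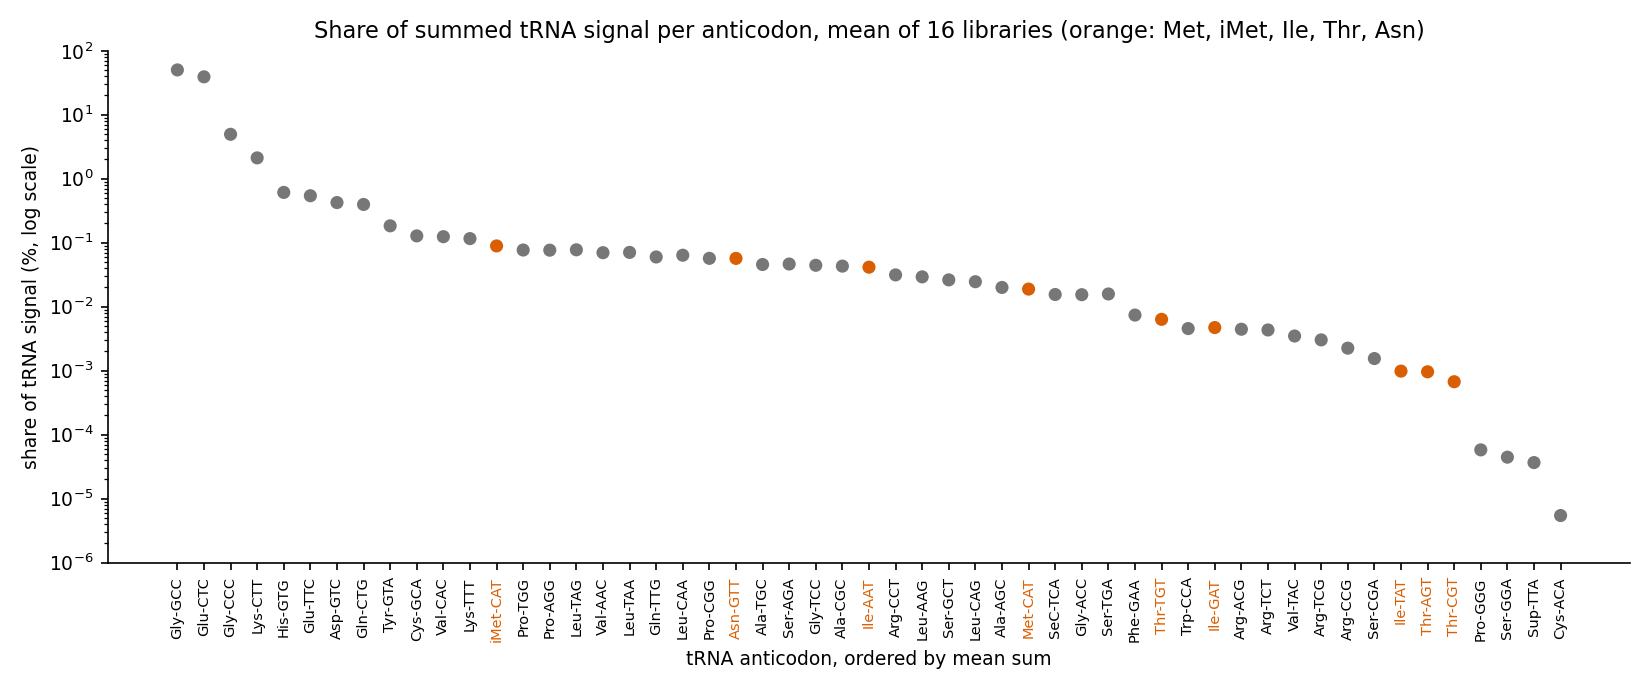
Mean share of the summed tRNA signal held by each of 53 tRNA anticodons over the 16 libraries, on a log axis in percent, with the methionine, isoleucine, threonine and asparagine anticodons in orange. The orange points run from 0.0890% for iMet-CAT to 0.000672% for Thr-CGT, while Gly-GCC and Glu-CTC at the left hold 50.2% and 39.1%.

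Within each anticodon, the row of highest mean (the leading row) gave a level that does not add shared reads. These are normalized counts per row, not divided by length; the 62 genes that RefSeq lists for these anticodons are 72 to 96 bases long, a ratio of 1.33 at most. tRNA-iMet-CAT-1-5 led with a mean of 782.8 ± 197.7 (SD over 16 libraries) and was above tRNA-Asn-GTT-3-3, the next row, in 16 of 16 libraries. tRNA-Asn-GTT-3-3 (342.7 ± 183.4), tRNA-Ile-AAT-1-1 (270.8 ± 64.8), tRNA-Ile-GAT-1-1 (238.2 ± 58.0) and tRNA-Met-CAT-2-1 (199.4 ± 100.4) followed, and each of the first 3 was above the next in 11 of 16 libraries, so these neighbours were not parted by the spread between libraries. tRNA-Thr-TGT-3-1 (121.2 ± 59.6) lay below tRNA-Met-CAT-2-1 and above tRNA-Ile-TAT-2-3 in 16 of 16 libraries. tRNA-Ile-TAT-2-3 (32.9 ± 13.4) was above tRNA-Thr-CGT-2-1 (26.4 ± 12.7) in 12 libraries, and the latter was above tRNA-Thr-AGT-1-2 (13.8 ± 7.80) in 13.

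Many of these rows were not independent measurements. When rows with a Pearson r of at least 0.99 across libraries and means within 2-fold were pooled, the 59 distinct rows fell into 34 pools, and 7 pools of 2 or more rows held 32 of them. The initiator rows of isodecoder 1 and tRNA-iMet-CAT-3-1 formed 1 pool that differed by at most 36 reads in any library. A pool of 8 distinct tRNA-Asn-GTT-3 rows held 89.9% of the Asn-GTT sum, a share that adds near-identical rows. As single rows, the means were 342.7 for tRNA-Asn-GTT-3-3, 201.4 for tRNA-Asn-GTT-1-1 and 95.9 for tRNA-Asn-GTT-2-1. tRNA-Ile-GAT-1-1, the only row with the GAT anticodon, fell in a pool with tRNA-Ile-AAT-2-1, tRNA-Ile-AAT-4-1 and tRNA-Ile-AAT-5-1. Its reads differed from those of tRNA-Ile-AAT-5-1 by -1 to 3 in a library and were equal in 7 libraries, so the table did not separate tRNA-Ile-GAT-1-1 from these 3 Ile-AAT rows.

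RefSeq (GRCm38.p6) places 26 of the 62 genes on chromosome 13 between positions 21167604 and 23530419. Of the 13 Asn-GTT genes, 6 lie on chromosome 3 between 96322074 and 96497854. RefSeq names do not pair with the row names of the table, so no row was assigned a position.

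The question was whether the level of any of these tRNAs differed between PS19 and WT cortex. No Met, Ile, Thr or Asn tRNA row passed the test by genotype across all features. Of the 59 distinct rows, 45 had a mean of at least 5 and were tested, and 0 of them passed an unadjusted p of 0.05 in limma on log2(value + 1), where 4% of the 6024 tested features did (241 features: 112 or 1.86% higher and 129 or 2.14% lower in PS19). The 6024 features kept identical rows, with 53 listed rows of these tRNAs among them, whereas the 45 rows are distinct. The smallest p among the 45 rows was 0.140. After Benjamini-Hochberg adjustment, 0 features of any class passed 0.05 in limma; DESeq2 on the recovered reads, run as an alternative, gave 15 features of all classes and none of these rows. In DESeq2 2 of the 45 rows passed an unadjusted p of 0.05, where 4.7% of all features did, and in edgeR 1 of 45, where 4.4% did, so neither count stood above its background; the rows were elongator Met rows described below. The differences in log2(value + 1), PS19 minus WT, ran from -0.80 to 0.36 with a median of 0.02, beside -0.02 over all tested features, and 24 of 45 were positive. In none of the 45 rows were the 8 PS19 values apart from the 8 WT values, as they were in 0.0996% of all tested features. The 8 mice of a group are the replicates, and the p-values measure the spread between them.

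**Figure D2:**
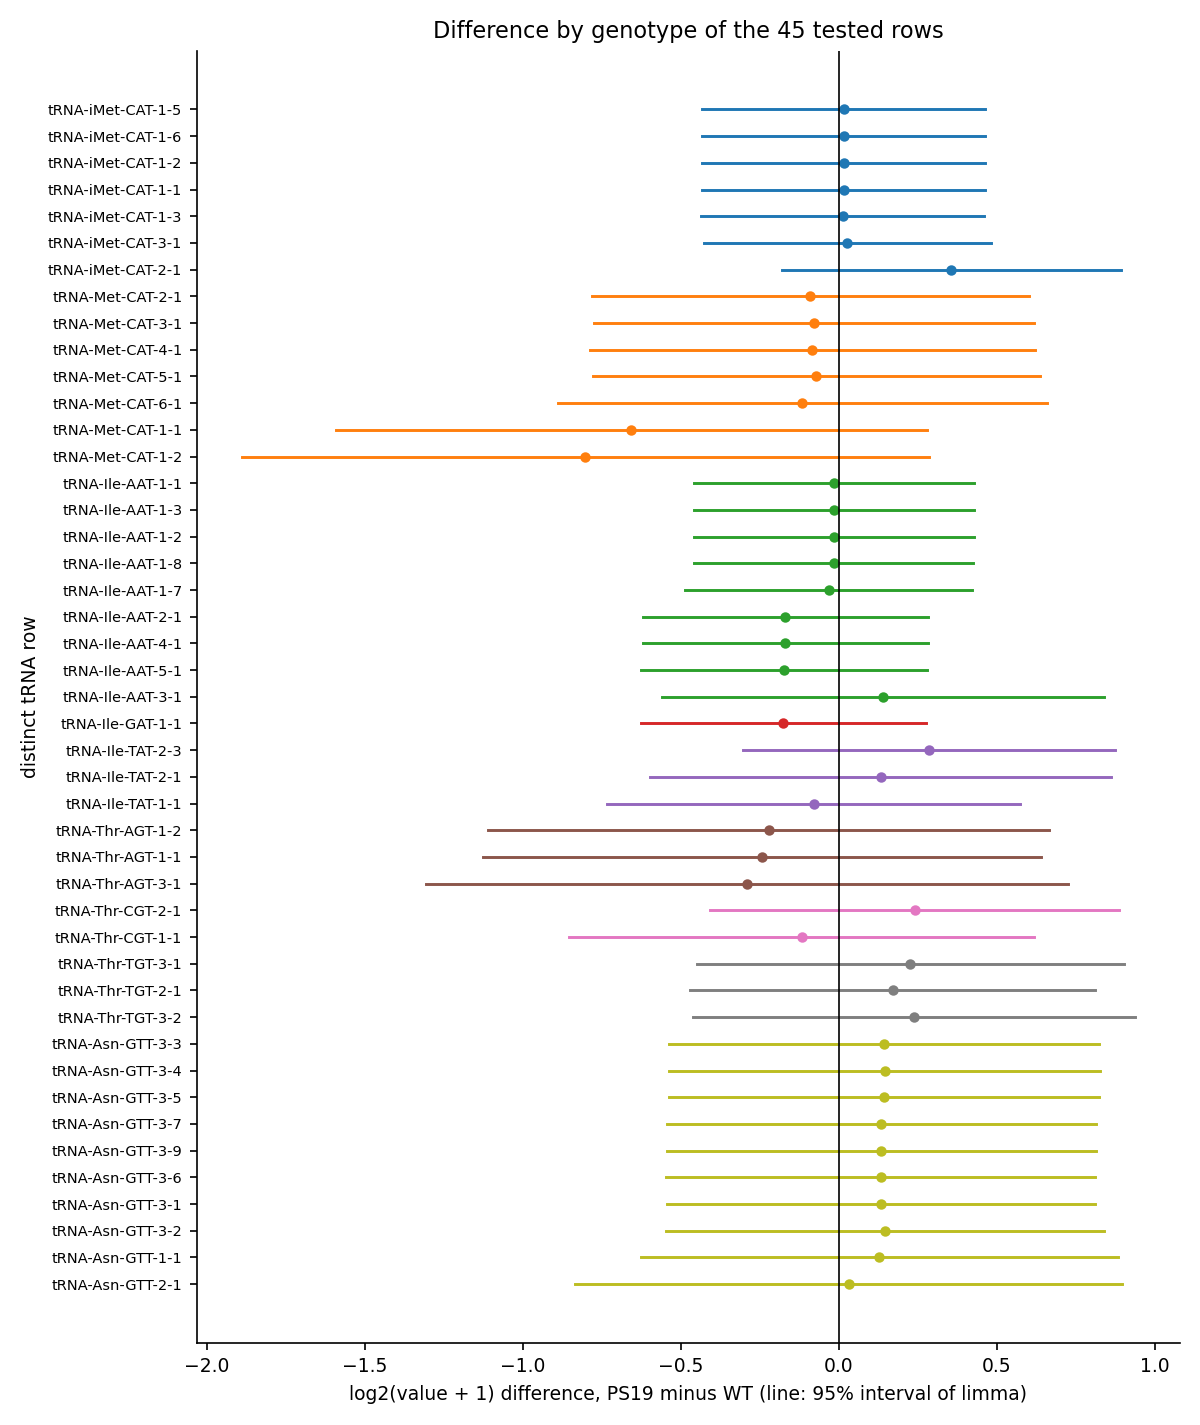
Difference in log2(value + 1) between PS19 and WT (horizontal axis, n = 8 each) for each of the 45 tested rows, with a colour for each anticodon; points are limma estimates and lines their 95% intervals. Each interval spans 0, and the lowest estimates are those of tRNA-Met-CAT-1-2 (-0.80) and tRNA-Met-CAT-1-1 (-0.66).

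The other tRNAs that read codons starting with A gave a similar count. Of 45 tested distinct rows of Lys-CTT, Lys-TTT, Ser-GCT, Arg-TCT and Arg-CCT, 1 passed an unadjusted p of 0.05, a Lys-TTT row that was lower in PS19, and their median difference was -0.07. Over all 304 tested tRNA rows of other anticodons, 14 passed, 13 higher and 1 lower in PS19, with a median of 0.06. Over all 6024 tested features 4% passed, 1.86% higher and 2.14% lower in PS19. The difference between 14 of 304 and 0 of 45 was not tested, and none of the 14 passed after adjustment in limma. How many of the 14 rows share reads was not examined.

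Initiator Met tRNA was the most abundant of the set and one of the least variable. Its sum over 8 distinct rows ranged from 3015 to 6956 in PS19, with a median of 4874, and from 3042 to 6303 in WT, with a median of 4637. The 2 genotypes covered nearly the same range. The difference was 0.02 ± 0.21 on the log2 scale (SE, n = 8 each; 95% interval -0.42 to 0.45; exact permutation p = 0.925; limma adjusted p = 0.9998, as for every row and sum described here). The coefficient of variation (CV, the SD as a percentage of the mean) over 16 libraries was 25.3%, the 13th lowest of the 53 anticodons.

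The leading initiator row, tRNA-iMet-CAT-1-5, gave 502.3 to 1161 in PS19 (median 813.3) and 508.9 to 1054 in WT (median 774.8). PS19 4 held the highest value and PS19 5 the lowest, so PS19 libraries stood at both ends. Its log2 difference was 0.02 ± 0.21 (exact permutation p = 0.936). A rarer isodecoder, tRNA-iMet-CAT-2-1, had the smallest p of the initiator rows and did not follow the leading row across libraries (r = 0.06, n = 16 libraries). It gave 9.49 to 26.5 in PS19 (median 16.1) and 6.37 to 21.1 in WT (median 13.1), from 9 to 27 reads in a library. The groups overlapped over most of their range, and the difference was 0.36 ± 0.26 (exact permutation p = 0.158), 0.23 without WT 7 and -0.044 with the library letter as a term.

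Elongator Met tRNA varied more between libraries and was highest in WT 3 and WT 1. Its sum ran from 473.9 to 1687 in PS19 (median 796.0) and from 447.0 to 2343 in WT (median 933.0). The WT range took in the PS19 range. The log2 difference was -0.15 ± 0.34 (exact permutation p = 0.690), with -0.28 in DESeq2, -0.32 in edgeR and 0.029 in limma without WT 3. The CV of 54.3% was the 6th highest of 53 anticodons. The leading row, tRNA-Met-CAT-2-1, had the same values as tRNA-Met-CAT-2-2 and gave 99.5 to 344.9 in PS19 (median 152.4) and 86.3 to 400.3 in WT (median 172.8). It differed by -0.09 ± 0.33 (exact permutation p = 0.804).

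The rows of isodecoder 1, tRNA-Met-CAT-1-1 and tRNA-Met-CAT-1-2, had the lowest differences of all 45 rows and stood high in 3 WT libraries. tRNA-Met-CAT-1-2 was at 134.5 in WT 1, 106.5 in WT 2 and 194.2 in WT 3, against 13.01 to 28.2 in the other 5 WT libraries and 8.05 to 53.5 in PS19. The PS19 median of 25.2 and the WT median of 25.7 were nearly equal, and 3 of 8 PS19 libraries lay above the WT median. The difference in log2(value + 1) was -0.80 ± 0.52 (95% interval -1.89 to 0.29; exact permutation p = 0.211), and it moved between -1.03 without WT 6 and -0.49 without WT 3.

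tRNA-Met-CAT-1-1 followed the same libraries, with 156.3, 122.7 and 225.0 in WT 1, 2 and 3, 26.0 to 44.2 in the other WT libraries and 16.8 to 72.3 in PS19. Its difference was -0.66 ± 0.45 (exact permutation p = 0.226). On recovered reads DESeq2 gave tRNA-Met-CAT-1-2 a log2 difference of -1.25 (adjusted p = 0.850) and tRNA-Met-CAT-1-1 one of -0.99 (adjusted p = 0.9998), and both passed an unadjusted p of 0.05. Of these, edgeR passed only tRNA-Met-CAT-1-2, at -1.24 (adjusted p = 0.998). With WT 3 left out the DESeq2 differences were -0.80 and -0.59, and with WT 1 left out they were -1.04 and -0.81, and in neither case did a row pass the unadjusted threshold. With WT 2 left out tRNA-Met-CAT-1-2 passed it (-1.12) and tRNA-Met-CAT-1-1 did not (-0.89). tRNA-Met-CAT-1-1 also missed it with PS19 1, 5, 6, 7 or 8 left out (-0.97 to -0.87), while tRNA-Met-CAT-1-2 passed it with any 1 PS19 library left out. WT 1, 2 and 3 carry the library letters F, G and A, one of each. The 2 WT libraries with the letter G were WT 2 and WT 4. They stood at 106.5 and 28.2 for tRNA-Met-CAT-1-2 and at 122.7 and 44.2 for tRNA-Met-CAT-1-1. Within the G libraries, 8 PS19 and 2 WT, the difference in log2(value + 1) was -1.17 for tRNA-Met-CAT-1-2 and -0.98 for tRNA-Met-CAT-1-1 (exact permutation p = 0.156 each), and for the leading rows of the 9 anticodons it ran from -0.58 for tRNA-Thr-AGT-1-2 to 0.23 for tRNA-Thr-CGT-2-1.

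The isodecoders of elongator Met did not keep a fixed proportion. tRNA-Met-CAT-1-1 stood at 45.02%, 67.9% and 56.2% of tRNA-Met-CAT-2-1 in WT 1, 2 and 3, at 9.496% to 34.7% in the other WT libraries and at 10.97% to 50.8% in PS19, where PS19 4 was highest. tRNA-Met-CAT-6-1 kept to a narrower band, 60.4% to 89.3% of tRNA-Met-CAT-2-1 in all 16 libraries. The correlation with tRNA-Met-CAT-2-1 on the log2 scale was 0.61 for tRNA-Met-CAT-1-1 (n = 16 libraries). The 3 WT libraries were picked out after their values were seen, so these are descriptions with no test.

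**Figure D3:**
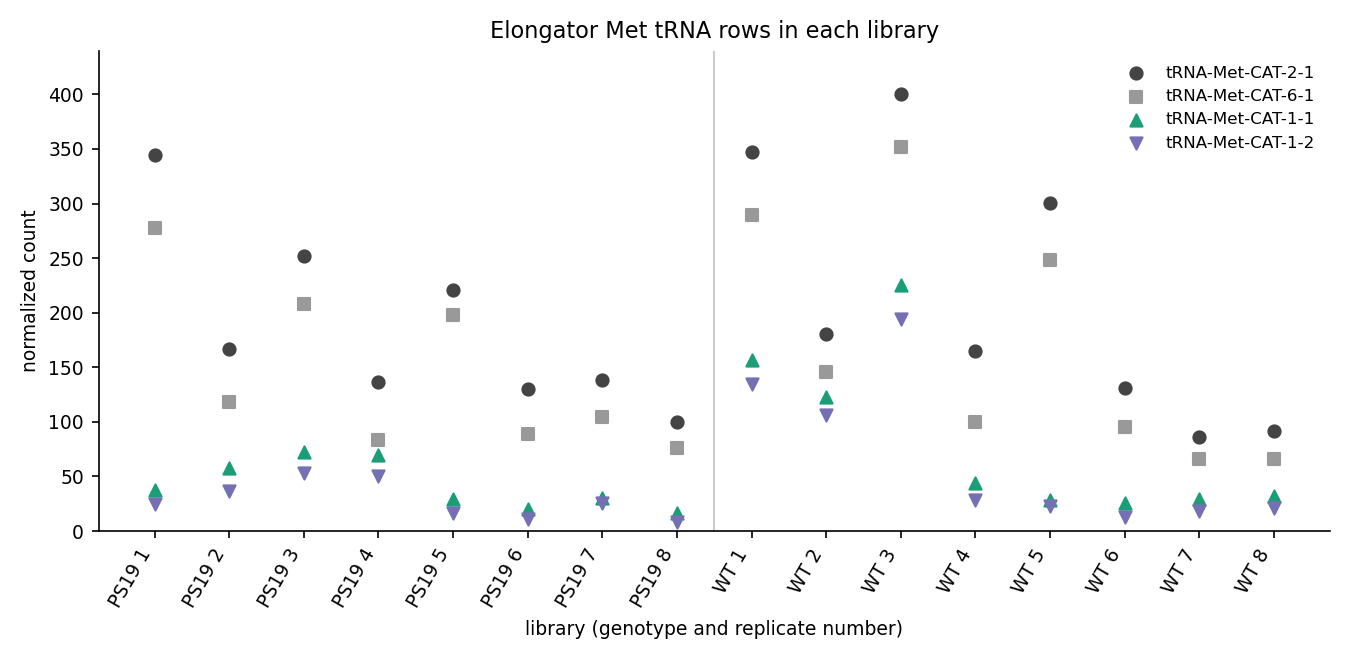
Normalized count (linear axis) of 4 elongator Met rows in each of the 16 libraries, PS19 at left and WT at right. The triangles of tRNA-Met-CAT-1-1 and tRNA-Met-CAT-1-2 rise above 100 in WT 1, WT 2 and WT 3, where tRNA-Met-CAT-1-1 reads 156.3, 122.7 and 225.0, and stay at or below 72.3 in every other library.

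The ratio of the initiator to the elongator Met sum compares the tRNAs that begin and extend proteins within a library, so it does not move with the scaling of the library. It ran from 2.72 in PS19 5 to 9.41 in PS19 4 (PS19 median 5.53) and from 2.07 in WT 5 to 10.2 in WT 7 (WT median 5.59). Each genotype spread over nearly the whole range, with 4 of 8 PS19 libraries above the WT median. The log2 difference was 0.17 ± 0.40 (SE; two-sided exact permutation p = 0.662 over all assignments of libraries to genotypes, adjusted over 4 ratios p = 0.662), and it moved between 0.0035 without WT 5 and 0.33 without WT 7, and was -0.033 within the G libraries. Across the 16 libraries the 2 sums had a Pearson r of 0.17 and a Spearman rho of 0.24 on the log2 scale, as a description.

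Ile-AAT tRNA, whose first anticodon base is converted to inosine and which reads the common isoleucine codons, was the least variable anticodon of the set, with a CV of 21.7%, the 4th lowest of 53. Its sum ran from 1150 to 2775 in PS19 (median 2133) and from 1523 to 2699 in WT (median 2152). PS19 libraries held both extremes, PS19 7 the lowest and PS19 5 the highest. The log2 difference was -0.07 ± 0.20 (95% interval -0.49 to 0.35; exact permutation p = 0.714). The leading row tRNA-Ile-AAT-1-1 gave 153.5 to 379.9 in PS19 and 191.7 to 368.1 in WT, with medians of 264.5 and 254.0, and a log2 difference of -0.015 (exact permutation p = 0.938).

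The second Ile-AAT pool gave a slightly lower estimate in PS19 than the first. tRNA-Ile-AAT-5-1 ran from 120.2 to 307.9 in PS19 (median 224.2) and from 177.5 to 334.0 in WT (median 257.6), a log2 difference of -0.17 (exact permutation p = 0.386). The near-identical tRNA-Ile-GAT-1-1 spanned 120.8 to 307.9 in PS19 and 179.6 to 336.8 in WT, a difference of -0.18 ± 0.22 in the sum table (exact permutation p = 0.379). PS19 7 was lowest in both rows, and without it the differences were -0.054 for tRNA-Ile-AAT-5-1 and -0.055 for the Ile-GAT sum. With the library letter as a term they were -0.027 and -0.026. tRNA-Ile-GAT-1-1 stood at 62.5% to 125% of tRNA-Ile-AAT-1-1 in PS19 (median 80.3%) and at 67.2% to 116% in WT (median 100.1%). The remaining isodecoder, tRNA-Ile-AAT-3-1, had a mean of 56.0 and a positive estimate of 0.14 (exact permutation p = 0.708).

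Ile-TAT tRNA reads the rarer AUA codon, and its genes carry an intron that is spliced out of the precursor. Its sum over 5 rows ran from 28.5 to 88.8 in PS19 (median 60.2) and from 26.2 to 72.4 in WT (median 45.7), from 30 to 117 reads in a library. The highest value was in PS19 1 and the lowest in WT 7, and the groups overlapped between these. The log2 difference was 0.22 ± 0.27 (exact permutation p = 0.429), 0.10 to 0.34 with 1 library left out, and -0.32 with the library letter as a term. tRNA-Ile-TAT-2-3 was both the leading row and the row of smallest p. It gave 18.0 to 57.9 in PS19 and 16.3 to 46.3 in WT, with medians of 35.2 and 26.4. The log2 difference of this row was 0.29 (exact permutation p = 0.326), and -0.25 with the library letter as a term. That difference was 0.18 without PS19 3 and 0.41 without PS19 6. The ratio of Ile-TAT to Ile-AAT had a median of 0.0280 in PS19 and 0.0224 in WT and ranged from 0.0135 in PS19 5 to 0.0613 in PS19 7 (log2 difference 0.28 ± 0.30, exact permutation p = 0.367, adjusted over 4 ratios p = 0.496). That difference was 0.11 without PS19 7 and -0.20 within the G libraries.

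Of the 3 Thr anticodons Thr-TGT was higher than the others, and none passed a test by genotype. Thr-TGT, which reads codons of the ACN family ending in A, had a sum from 201.9 to 677.0 in PS19 (median 325.0) and from 124.1 to 759.8 in WT (median 237.2). WT 1, 2 and 3 were again highest among WT libraries, at 759.8, 451.7 and 562.0, and the other 5 WT libraries lay between 124.1 and 238.8. Of the PS19 libraries, 7 of 8 lay above the WT median, but the log2 difference was 0.21 ± 0.32 (exact permutation p = 0.558), and it moved between 0.028 without WT 8 and 0.40 without WT 1. DESeq2 gave 0.067 and edgeR 0.044. The sum of Thr-TGT and that of elongator Met had a Pearson r of 0.77 on the log2 scale (n = 16 libraries), a description.

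The 3 tested Thr-TGT rows fell in 1 pool, and the remaining row, tRNA-Thr-TGT-1-1, held at most 7 reads in a library. tRNA-Thr-TGT-3-1, the leading row, gave 67.3 to 227.1 in PS19 (median 110.4) and 40.1 to 253.7 in WT (median 79.6), with a log2 difference of 0.23 (exact permutation p = 0.529). tRNA-Thr-TGT-3-2, with the smallest p of the group, gave 65.1 to 225.7 in PS19 and 36.4 to 251.1 in WT (0.24, exact permutation p = 0.527). In both rows PS19 3 was the highest PS19 library and WT 1 the highest of all. Without WT 8 the differences were 0.040 and 0.042, and without WT 1 they were 0.42 and 0.44.

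Thr-AGT, whose first anticodon base is also converted to inosine, was carried by few reads although the table listed 9 rows for it. Its sum ran from 6.64 in PS19 6 to 120.1 in PS19 3 (PS19 median 45.6), and from 22.0 to 63.4 in WT (median 56.0). Both extremes were PS19 libraries, and PS19 6 held 7 reads over all Thr-AGT rows. The log2 difference was -0.27 ± 0.39 (exact permutation p = 0.598). The leading row tRNA-Thr-AGT-1-2, identical to tRNA-Thr-AGT-1-3, gave 0.949 to 36.2 in PS19 and 5.003 to 18.1 in WT (-0.22, exact permutation p = 0.689). tRNA-Thr-AGT-3-1 gave 0 to 31.8 in PS19 and 5.003 to 16.8 in WT (-0.29, exact permutation p = 0.717). The sign of these 3 estimates rested on PS19 6: without it the sum differed by 0.08, tRNA-Thr-AGT-1-2 by 0.15 and tRNA-Thr-AGT-3-1 by 0.19. DESeq2 and edgeR gave positive estimates for the sum and both rows with all libraries in.

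Thr-CGT had the lowest sum of the set, although its leading row was above that of Thr-AGT. Its sum ran from 17.7 to 65.5 in PS19 (median 34.8) and from 16.97 to 44.8 in WT (median 32.0), a log2 difference of 0.11 ± 0.30 (exact permutation p = 0.725), with 0.22 in DESeq2, 0.24 in edgeR and -0.027 in limma without PS19 1. tRNA-Thr-CGT-2-1 gave 13.2 to 53.9 in PS19 and 14.9 to 35.5 in WT, with medians of 28.8 and 20.6 (0.24, exact permutation p = 0.468), and the difference moved between 0.095 without PS19 1 and 0.37 without PS19 8. The ratio of Thr-CGT to Thr-AGT differed by 0.38 ± 0.41 on the log2 scale (exact permutation p = 0.372, adjusted over 4 ratios p = 0.496). The ratio of Thr-TGT to Thr-AGT differed by 0.48 ± 0.48 (exact permutation p = 0.355, adjusted over 4 ratios p = 0.496); its highest value, 40.7, was in PS19 6, where Thr-AGT was lowest. Without PS19 6 the 2 differences were 0.15 for Thr-CGT to Thr-AGT and 0.16 for Thr-TGT to Thr-AGT.

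**Figure D4:**
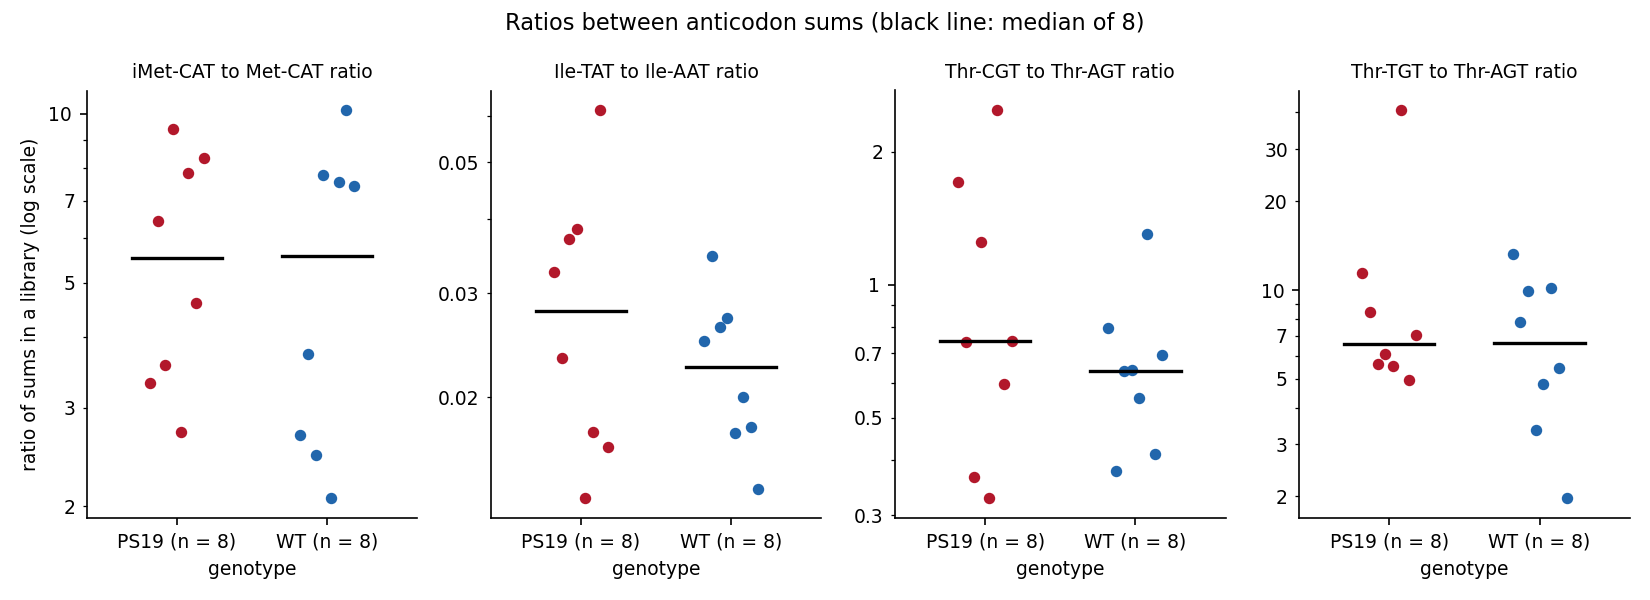
Ratio between anticodon sums within each library (log axes), PS19 in red and WT in blue, n = 8 each, with the median as a black line. The iMet-CAT to Met-CAT medians are 5.53 in PS19 and 5.59 in WT, and in the rightmost panel PS19 6 lies apart at 40.7.

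Asn-GTT tRNA, whose first anticodon base is replaced by queuosine in mature tRNA, had the widest PS19 spread of the abundant groups. Its sum ran from 1334 in PS19 8 to 7621 in PS19 1 (PS19 median 3033), with 5193 in PS19 3, and from 1669 to 3596 in WT (median 2656). The PS19 range took in the whole WT range: PS19 1, 3 and 4 lay above every WT library and PS19 5, 6 and 8 below every one. The SD was 2189 in PS19 and 713.0 in WT, and the log2 difference in level was 0.13 ± 0.32 (95% interval -0.55 to 0.80; exact permutation p = 0.731). It was 0.36 in both DESeq2 and edgeR, and -0.078 in limma without PS19 1. The difference in spread was not tested.

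The leading row tRNA-Asn-GTT-3-3 gave 155.1 to 863.1 in PS19 (median 347.3) and 196.6 to 398.5 in WT (median 291.5), with a log2 difference of 0.14 ± 0.33 (exact permutation p = 0.692). The row of smallest p in the group, tRNA-Asn-GTT-3-4, had the same highest and lowest values (0.14, exact permutation p = 0.691). Other isodecoders kept part of the pattern. tRNA-Asn-GTT-1-1 stood at 40.4% to 70.5% of tRNA-Asn-GTT-3-3 in all libraries, with a correlation of 0.96 on the log2 scale, and tRNA-Asn-GTT-2-1 at 10.7% to 53.2% with a correlation of 0.71 (n = 16 libraries each). tRNA-Asn-GTT-2-1 had a mean of 95.9 and a difference of 0.03 (exact permutation p = 0.949).

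**Figure D5:**
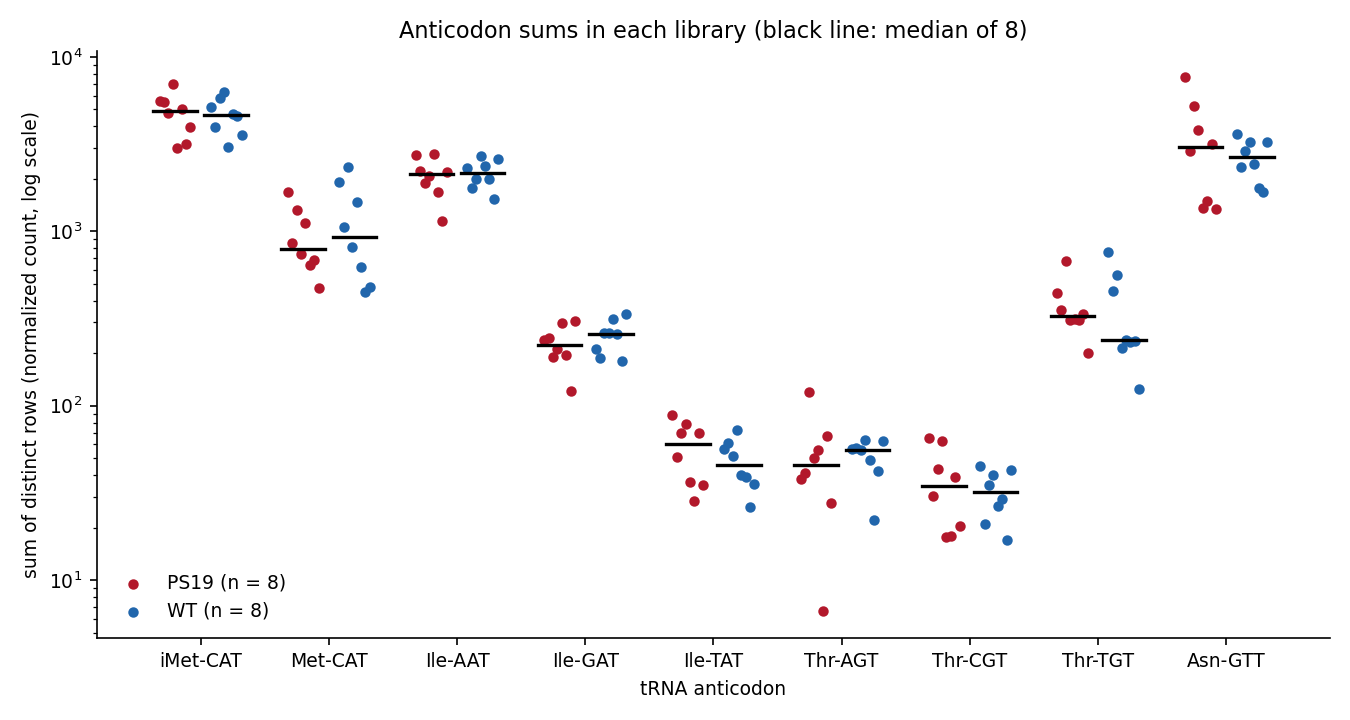
Sum of distinct rows (normalized count, log axis) for each of the 9 anticodon groups in each PS19 (red) and WT (blue) library, n = 8 each, with the median as a black line. The groups overlap for every anticodon, and the PS19 points of Asn-GTT spread from 1334 to 7621 around WT points between 1669 and 3596.

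Some of the anticodon sums rose and fell together across libraries. The highest correlation on the log2 scale was between Thr-CGT and Asn-GTT (r = 0.90, rho = 0.95, n = 16 libraries), followed by Ile-AAT with Ile-GAT (r = 0.84), which hold rows of near-identical counts, Ile-TAT with Asn-GTT (r = 0.83) and Ile-TAT with Thr-CGT (r = 0.80). The Thr-CGT values rest on 18 to 66 reads in a library. Initiator Met had correlations from -0.12 to 0.48 with the other groups, and Thr-AGT from -0.12 to 0.52. Both sums of a pair come from the same library and size factor, so these values are descriptions. No feature outside the tRNAs followed a leading row at r of at least 0.99 with a mean within 2-fold. Below that limit, and named after their values were seen, the circular RNA mmu_circ_0016293 had r = 0.98 with tRNA-iMet-CAT-1-5 (mean 620.2) and miR-181b-5p r = 0.96 with tRNA-Asn-GTT-3-3 (mean 17813), over 16 libraries and as a description.

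The other 14 distinct rows had means from 0.133 to 4.52 and were not tested across features. They held 2 to 75 reads over all 16 libraries and at most 12 in 1 library, and include tRNA-iMet-CAT-4-1, tRNA-Met-CAT-7-1 and 5 Thr-AGT rows. The size of difference that could be detected at these counts was not examined. The lowest exact permutation p among them was 0.0291, for tRNA-Thr-AGT-4-1, which held 0 to 6 reads in a library. The next was 0.0342, for tRNA-Thr-AGT-6-1 with 0 to 3 reads. Both means were lower in PS19, but these rows had equal values in PS19 1, 2, 3, 5 and 6 and in WT 4, 6 and 7. Neither p is adjusted, and the share of all features under 0.05 by this test was not computed.

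In the fit of anticodon sums, 0 of the 9 groups passed an unadjusted p of 0.05, where 3.9% of the 5668 features of that table did. The 95% intervals put the precision of this comparison at -0.42 to 0.45 on the log2 scale for initiator Met and at -1.09 to 0.55 for Thr-AGT, the widest.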

How the data were processed

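Small RNA from frozen prefrontal cortex of each mouse was sequenced by the authors (NEBNext small RNA libraries, single-end reads), aligned with STAR 2.5.3a and counted by class with COMPSRA; the submitters' processing notes name mm10 and DESeq2 1.42.1. The deposited signal values are read counts that the authors divided by a size factor per library. In 14 libraries whole reads were recovered from the steps of the values; in WT 4 and WT 6 1 step was near 1, and values were rounded. No column of values was left unused.

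Rows with identical values were counted once in the counts of tRNA rows and in the anticodon sums. The fits by row kept every listed row, identical ones included. Features with a mean of at least 5 were tested with limma 3.58.1 (trend) on log2(value + 1), with Benjamini-Hochberg adjustment over all of them; anticodon sums replaced tRNA rows in a second fit, and single rows, sums and ratios were also tested by two-sided exact permutation over libraries, whose p is printed beside each. In simulated counts 200 of 6024 features were changed, and 5791 features passed the filter on the mean. Among the changed features that passed it, 94.4% of changes of 2 log2 units and 11.2% of those of 1 log2 unit were called after adjustment. So were 5 unchanged features. Each library was 1 sample and no pair of a group agreed within sampling noise. The members, lists and tests were chosen with earlier results of these data known. In each anticodon the row of highest mean, the row of smallest p and any row called were named; other rows were named after their values were seen. Alternatives were DESeq2 1.42.0 and edgeR 4.0.16 on recovered reads, other scalings, filters and pseudocounts, a block for replicate number, a term for the letter of the library code, and libraries left out. R 4.3.3 and Python 3.11.15 were used. No sequence is printed, since the reference tables used here gave positions of these tRNA genes but no sequences.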

Additional observations from a re-analysis of the deposited data

Results flagged for a closer look

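In 3 of the 56 groups of 8 values examined, 1 library lay farther from the rest than Dixon's 95% critical value allows, where chance gives about 2.8. tRNA-Thr-TGT-3-2 was highest among PS19 libraries in PS19 3, at 225.7, with the next library at 141.2. The ratio of Thr-CGT to Thr-AGT was highest among WT libraries in WT 6, at 1.30, with the next at 0.799. The ratio of Thr-TGT to Thr-AGT was highest among PS19 libraries in PS19 6, at 40.7, with the next at 11.4; that library held 7 reads over all Thr-AGT rows.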

How the results depend on the processing

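No change of setting gave a row of these tRNAs an adjusted p under 0.05, and of all features 15 passed with DESeq2 where limma gave 0. The count of these rows at an unadjusted p of 0.05 rose from 0 to 2 with DESeq2 and 1 with edgeR, as described for tRNA-Met-CAT-1-2 and -1-1, to 1 with no filter (tRNA-Thr-AGT-4-1, -0.78) and to 2 with the replicate block, beside 4.7%, 4.4%, 3.98% and 6.96% of all features in the same fits. DESeq2 with each library left out, chosen after seeing the data, gave 0 to 2. Same-numbered libraries correlated at 0.0446 to 0.456 in their deviations, 6 of 8 over 0.1, and 2 of 8 PS19 libraries correlated best with their own number; since not every pair passed 0.1 and no source ties the numbers to a litter or batch, the numbers were not taken as pairs. The 2 rows under the block were tRNA-Met-CAT-1-2 and tRNA-Met-CAT-1-1 (adjusted p = 0.678 each), and the block raised the count over all features from 241 to 419, where the library letter as a term lowered it to 124.

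Some estimates changed sign, and the cause was not tested. The library letter as a term leaves 2 WT libraries, WT 2 and WT 4, beside 8 PS19 ones. With it the iMet-CAT sum gave -0.12, the Ile-TAT sum -0.32 and tRNA-iMet-CAT-1-5 -0.13. tRNA-iMet-CAT-2-1 gave -0.044 (0.36 without the term) and tRNA-Ile-TAT-2-3 -0.25. tRNA-Met-CAT-1-2 kept its sign at -1.17, with WT 2 at 106.5 and WT 4 at 28.2 beside a PS19 median of 25.2. With DESeq2 and edgeR the Thr-AGT sum gave 0.0032 and 0.028, tRNA-Ile-AAT-1-1 0.0097 and 0.028, tRNA-Thr-AGT-1-2 0.080 and 0.11, and tRNA-Thr-AGT-3-1 0.097 and 0.12; scaling to the library total gave tRNA-Ile-AAT-1-1 0.0090. In G libraries alone the initiator to elongator ratio gave -0.033 and the Ile-TAT to Ile-AAT ratio -0.20. Leaving out 1 library moved the iMet-CAT sum between -0.068 and 0.10, Met-CAT between -0.31 and 0.029, Ile-AAT between -0.14 and 0.049, Thr-AGT between -0.49 and 0.078, Thr-CGT between -0.027 and 0.23, Thr-TGT between 0.028 and 0.40, Ile-TAT between 0.10 and 0.34, Ile-GAT between -0.25 and -0.055 and Asn-GTT between -0.078 and 0.28. It moved tRNA-iMet-CAT-1-5 between -0.071 and 0.10, tRNA-Met-CAT-2-1 between -0.24 and 0.070, tRNA-Ile-AAT-1-1 between -0.091 and 0.095, tRNA-Thr-AGT-1-2 between -0.46 and 0.15, tRNA-Thr-AGT-3-1 between -0.53 and 0.19, tRNA-Asn-GTT-3-3 between -0.060 and 0.29 and tRNA-Asn-GTT-3-4 between -0.059 and 0.29. For tRNA-Met-CAT-2-1 DESeq2 gave -0.19 and edgeR -0.18, for tRNA-Thr-TGT-3-1 0.079 and 0.10, for tRNA-Thr-TGT-3-2 0.074 and 0.097, for tRNA-Asn-GTT-3-3 0.36 and 0.37, and for tRNA-Asn-GTT-3-4 0.36 and 0.37. In G libraries alone the Thr-CGT to Thr-AGT ratio gave 0.74 and the Thr-TGT to Thr-AGT ratio 0.72. No sum or row passed an unadjusted p of 0.05 in limma with 1 library left out.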
